A study of Mus musculus with 6 samples.

Results

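The 10 genes examined here belong to mature oligodendrocytes but do not encode structural myelin proteins, and were measured in RNA from the mouse optic nerve: Trf, Apod, Enpp2, Car2, Gpr37, Tspan2, Cd9, Ermn, Ndrg1 and Plekhb1. They were taken by symbol from the 24062 genes counted in each of 6 libraries, and all 10 were found and passed the filter on low counts. The 3 control libraries came from animals without Cre recombinase. Of these, library 1 is Nf1flox/flox, whereas libraries 2 and 3 are Nf1flox/+ with a single floxed allele. The 3 mutant libraries came from animals with the genotype PlpCreERT2;Nf1flox/flox, in which a tamoxifen-activated Cre can recombine both Nf1 alleles in the cells where the transgene is active. All were adults older than 2 months at tamoxifen treatment, and nerves were taken 1 month later. Since Cre was present in mutants only, effects of Cre and of Nf1 loss cannot be told apart. Whether nerves were pooled, and whether every library is its own animal, is not given in the sources used here. The p-values therefore reflect only how much these libraries vary, which could be technical in part.

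Oligodendrocytes wrap axons of the central nervous system in myelin, and in the optic nerve they surround the axons of retinal ganglion cells. Besides the proteins of the sheath, a mature oligodendrocyte makes enzymes, carriers, receptors and cytoskeletal proteins that serve iron supply, pH balance, lipid signalling and the shape of the cell. Many of these genes are also used by other cells, such as Apod in fibroblasts, Enpp2 in choroid plexus and Cd9 in endothelium. Nf1, the targeted gene, encodes neurofibromin, which lowers Ras activity.

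Total counts ranged from 13555756 to 23662698 per library, and the 10 genes had 351 to 46540 counts per gene and library. The control range of Nf1, in counts scaled to library size and given as CPM, was 337 to 400, and mutants ranged from 226 to 433 CPM, so the groups overlapped (log2 fold change -0.23, adjusted p 0.703 by edgeR, SE 0.28). A count summed over all exons of Nf1 is no check of a deletion within it. Xist, the RNA that coats an inactivated X, gave 30602 to 72727 counts in control library 2 and every mutant, but 58 in control library 1 and 34 in control library 3. By this marker the controls mix both sexes and the mutants do not. The 9 genes of central nervous system (CNS) myelin proteins used as defining markers of the cell type were detected in every library. Their summed level was 25920 to 26830 CPM in controls and 5477, 34060 and 4624 CPM in mutant libraries 1, 2 and 3. Mutant library 2 thus stands apart from the other 2 mutant libraries in the defining markers of oligodendrocytes, and the fold changes of the 10 genes are given with and without it. It was singled out by the level of genes of the same cell type. The p-values without mutant library 2 are therefore a description and no independent test.

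In control nerves all 10 genes were abundant. Scaled to exon length, their control means lay above those of 92.5% (Gpr37) to 99.9% (Apod) of the 16315 genes tested. Apod was the highest, with 897 ± 125 CPM per kilobase of exon (SD, n = 3), followed by Plekhb1 with 776 ± 71.5, Trf with 674 ± 126, Enpp2 with 402 ± 44.6 and Car2 with 377 ± 59.1. Ermn had 224 ± 48.3, Ndrg1 217 ± 18.5, Tspan2 195 ± 31.7, Cd9 66.3 ± 22.6 and Gpr37 43.5 ± 8.35 CPM per kilobase. In this order the ranges of the 3 controls were separate between Trf and Enpp2, between Car2 and Ermn, and between Tspan2 and Cd9. The other 6 pairs of neighbours had overlapping ranges. Gpr37 ranked 10 and Cd9 ranked 9 in each of the 6 libraries, and Apod ranked 1 in all of them except mutant library 1, where Plekhb1 did.

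The genes lie on chromosomes 2, 3, 6, 7, 9, 15 and 16, and those that share a chromosome lie far apart on it. RefSeq promoter entries (GRCm38.p6, the assembly behind mm10) were found for 6 of the 10, with 8 start sites. The 250 bases before 3 of these start sites are shown because these genes were low together in the same 2 libraries, and because each start site is the one used in the count annotation. Capitals mark the only match found when all 8 stretches were searched on both strands for 4 motifs.
Plekhb1 (chr7:100662395-100662644, minus strand): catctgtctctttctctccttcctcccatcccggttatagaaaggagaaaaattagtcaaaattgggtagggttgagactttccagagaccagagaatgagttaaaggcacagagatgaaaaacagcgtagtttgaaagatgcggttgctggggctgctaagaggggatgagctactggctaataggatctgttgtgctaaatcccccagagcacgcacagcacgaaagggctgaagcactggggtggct
Tspan2 (chr3:102734520-102734769, plus strand): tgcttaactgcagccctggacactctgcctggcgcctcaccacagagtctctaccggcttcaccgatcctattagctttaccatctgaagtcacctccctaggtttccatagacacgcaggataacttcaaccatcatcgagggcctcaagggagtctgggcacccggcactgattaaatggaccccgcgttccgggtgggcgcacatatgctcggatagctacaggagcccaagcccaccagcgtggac
Gpr37 (chr6:25689981-25690230, minus strand): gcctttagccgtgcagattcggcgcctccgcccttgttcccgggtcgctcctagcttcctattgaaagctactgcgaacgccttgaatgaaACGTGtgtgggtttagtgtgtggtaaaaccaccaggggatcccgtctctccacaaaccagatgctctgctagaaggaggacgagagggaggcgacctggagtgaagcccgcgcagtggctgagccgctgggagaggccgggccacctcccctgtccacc
The match is ACGTG, the core of the hypoxia response element, which begins 159 bases before the start site of Gpr37 and occurs in 16.6% of 32851 promoter stretches of the same length. AACAAT, a core bound by SOX factors, occurs in 9.42% of all stretches, CTGGCAC, a motif of the oligodendrocyte factor MYRF, in 4.19%, and the E-box CACGTG, which contains ACGTG, in 6.02%. None of these 3 letter strings is in the 8 stretches of the 6 genes, which says only that these letters are not in these windows.

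The comparison of mutants with controls asks how the transcripts of the nerve differ 1 month after Nf1 was targeted in mature oligodendrocytes. All 10 genes were low in mutant libraries 1 and 3 and at or near control level in mutant library 2. In mutant library 1 they stood at 19.3% (Apod) to 36.4% (Cd9) of the control mean, in mutant library 3 at 13.3% (Trf) to 34.5% (Cd9), and in mutant library 2 at 70.6% (Cd9) to 126% (Car2). Over all 6 libraries none passed the test, where 0.337% of all genes tested passed as lower in mutants. The 10 log2 fold changes were nevertheless all negative, where 50.1% of all genes were. In bulk RNA, fewer oligodendrocytes, less of these transcripts per cell and more RNA from other cells cannot be told apart. In the mutants, markers of striatal projection neurons summed to 1261 to 2050 CPM, against 101 to 142 CPM in controls. Their part in the values of the 10 genes was not tested.

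**Figure D1:**
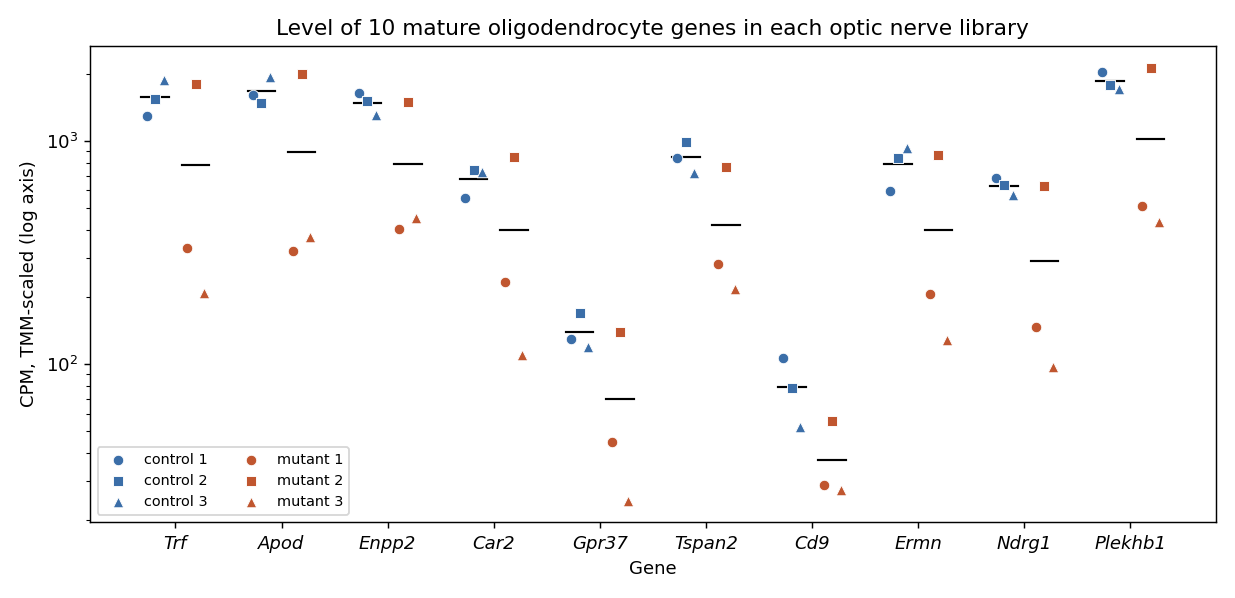
Level of each gene in CPM on a log axis, with controls in blue, mutants in orange, the library number given by the shape and the group mean by a black bar. Mutant libraries 1 and 3 lie below every control for all 10 genes, and mutant library 2 lies among or above the controls for all 10.

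Trf, Apod and Enpp2 encode secreted proteins. Trf encodes transferrin, the iron carrier that oligodendrocytes make and release (chromosome 9, 103208876 to 103230286, 17 exons). It had 1292, 1543 and 1876 CPM in control libraries 1, 2 and 3, and 330, 1801 and 209 CPM in mutant libraries 1, 2 and 3. Mutant library 2 thus lay inside the range of the controls and the other 2 mutant libraries at least 3.91-fold below the lowest control. The log2 fold change was -1.01 (adjusted p 0.474 by edgeR, SE 0.70), and -2.54 (adjusted p 0.00012 by edgeR, SE 0.28) without mutant library 2. That was the lowest value of the 10 genes in that fit.

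Apod encodes apolipoprotein D, a lipid-binding lipocalin (chromosome 16, 31296192 to 31314596, 6 exons). Its levels were 1600, 1482 and 1931 CPM in control libraries 1, 2 and 3, and 323, 1989 and 372 CPM in mutant libraries 1, 2 and 3. Mutant library 2 was the highest of all 6 libraries, and the other 2 mutant libraries were at least 3.98-fold below the lowest control, the widest such gap of the 10 genes. Over all libraries Apod had a log2 fold change of -0.90 (adjusted p 0.485 by edgeR, SE 0.64), and -2.26 (adjusted p 7.5e-05 by edgeR, SE 0.22) without mutant library 2.

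Enpp2 encodes autotaxin, the secreted enzyme that makes lysophosphatidic acid (chromosome 15, 54838679 to 54920146, 27 exons). It had 1636, 1504 and 1309 CPM in the controls and 402, 1500 and 453 CPM in the mutants, in order of library number. Mutant library 2 lay inside the range of the controls, and the other mutant libraries at least 2.89-fold below it. Enpp2 and Apod were the 2 genes that were higher in mutant library 3 than in mutant library 1, by 1.13-fold and 1.15-fold. The log2 fold change of Enpp2 was -0.92 (adjusted p 0.352 by edgeR, SE 0.49), and -1.79 (adjusted p 0.00019 by edgeR, SE 0.21) without mutant library 2.

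Car2 encodes carbonic anhydrase II, a cytosolic enzyme that interconverts carbon dioxide and bicarbonate (chromosome 3, 14886426 to 14900770, 7 exons). It had 553, 743 and 730 CPM in the controls and 234, 850 and 111 CPM in the mutants. Mutant library 2 was above every control, and mutant library 3 had 0.472 times the level of mutant library 1, the lowest such ratio of the 10 genes. Car2 had a log2 fold change of -0.76 (adjusted p 0.547 by edgeR, SE 0.62), and -1.96 (adjusted p 0.00112 by edgeR, SE 0.32) without mutant library 2.

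The membrane proteins were the lowest of the 10 genes in control CPM per kilobase. Gpr37 encodes an orphan G protein-coupled receptor of the endothelin receptor group (chromosome 6, 25668523 to 25689980, 2 exons). It had 129, 170 and 119 CPM in the controls and 44.7, 140 and 24.5 CPM in the mutants, so that mutant library 2 lay inside the control range. Its log2 fold change was -1.0 (adjusted p 0.358 by edgeR, SE 0.55), and -2.00 (adjusted p 0.000674 by edgeR, SE 0.30) without that library.

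Tspan2 and Cd9 are tetraspanins, small membrane-spanning proteins that organise other proteins in the membrane. Tspan2 (chromosome 3, 102734770 to 102772310, 9 exons) had 841, 992 and 716 CPM in the controls and 282, 768 and 218 CPM in the mutants. Its log2 fold change was -1.01 (adjusted p 0.272 by edgeR, SE 0.46), and -1.76 (adjusted p 0.000349 by edgeR, SE 0.23) without mutant library 2. Reads were counted without strand, and 88 bases of its exons, 2.02%, overlap the antisense gene Tspan2os, which had 0 to 12 counts per library. Exons of the other 9 genes overlap no other counted gene.

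Cd9 (chromosome 6, 125460266 to 125494755, 8 exons) varied most among the controls, with 106, 78.3 and 52.5 CPM in control libraries 1, 2 and 3. It had 28.8, 55.8 and 27.3 CPM in the mutants. Its highest control was 2.02-fold above the lowest, where the other 9 genes had ratios of 1.19 (Ndrg1) to 1.55 (Ermn). Mutant library 2 lay at the low end of the control range, and the gap from the lowest control to the other mutant libraries, 1.83-fold, was the smallest of the 10 genes. The log2 fold change was -1.09 (adjusted p 0.150 by edgeR, SE 0.36), and -1.49 (adjusted p 0.00407 by edgeR, SE 0.30) without mutant library 2. Cd9 was the 1 gene of the 10 with an unadjusted p under 0.05 over all libraries (edgeR unadjusted p 0.0150), where 8.02% of all genes tested had one and were lower in mutants.

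The last 3 genes encode proteins of the cytoplasm and cytoskeleton. Ermn encodes ermin, an actin-binding protein of oligodendrocytes (chromosome 2, 58045115 to 58052752, 3 exons). It had 598, 836 and 927 CPM in the controls and 205, 862 and 129 CPM in the mutants. Its log2 fold change was -0.98 (adjusted p 0.431 by edgeR, SE 0.62), and -2.23 (adjusted p 0.000274 by edgeR, SE 0.28) without mutant library 2, which lay inside the control range.

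Ndrg1 encodes a cytosolic protein induced by hypoxia and by differentiation (chromosome 15, 66929318 to 66969641, 16 exons). It was the steadiest of the 10 genes in controls, with 679, 633 and 573 CPM. It had 147, 626 and 97.1 CPM in the mutants, and mutant library 2 was at 99.6% of the control mean. For Ndrg1 the log2 fold change was -1.12 (adjusted p 0.358 by edgeR, SE 0.61), and -2.36 (adjusted p 9.2e-05 by edgeR, SE 0.24) without mutant library 2.

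Plekhb1 encodes evectin-1, a membrane-associated protein with a pleckstrin homology domain (chromosome 7, 100643896 to 100662394, 10 exons). It had 2039, 1788 and 1714 CPM in the controls and 511, 2132 and 432 CPM in the mutants. Mutant library 2 was above every control here, as for Car2 and Apod. The log2 fold change was -0.85 (adjusted p 0.457 by edgeR, SE 0.57), and -1.96 (adjusted p 0.00012 by edgeR, SE 0.21) without mutant library 2.

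Over all 6 libraries 0 of the 10 genes passed by edgeR at an adjusted p under 0.05, where 3.29% of the 16315 genes tested passed in either direction and 0.337% passed as lower in mutants. DESeq2 and limma-voom also called 0, with 3 and 9 of the 10 at an unadjusted p under 0.05 (all genes lower at that level: 9.73% and 12%), while limma-voom with a quality weight for each library called all 10 as lower (12.4% of all genes). That fit gave mutant library 2 a weight of 0.281 and the other libraries weights of 0.731 to 3.57. The median log2 fold change of the 10 was -0.99, against -0.00 over all genes tested, and all 10 values were negative, where 50.1% of all genes were. In mutant libraries 1 and 3 all 10 genes were below every control, where 27.3% of all genes were. In mutant library 2 none of the 10 was below every control, where 29.5% of all genes were, and 7 lay inside the control range, where 41.2% of all genes did.

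Without mutant library 2 all 10 genes fell by edgeR, with log2 fold changes of -2.54 (Trf) to -1.49 (Cd9), SE of 0.21 to 0.32 and adjusted p of 7.5e-05 to 0.00407. The median was -1.98, and 13.8% of the 16857 genes tested in that fit passed and were lower in mutants. That fit rests on 2 mutant libraries. Because mutant library 2 was singled out by its level of oligodendrocyte genes, these p-values are no independent test. Mutant library 2 alone against the controls, chosen after seeing the data and with its spread taken from the controls, gave log2 fold changes of -0.50 (Cd9, SE 0.35) to 0.33 (Car2, SE 0.25), with edgeR adjusted p of 0.620 to 0.996.

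**Figure D2:**
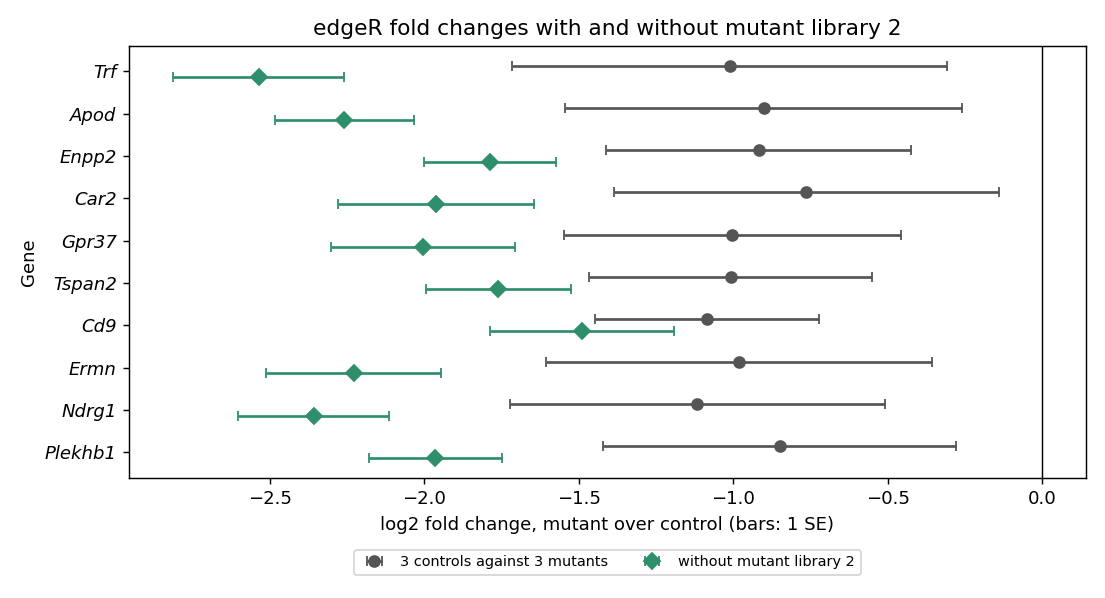
log2 fold change of each gene by edgeR, with bars of 1 SE, for all 6 libraries (grey circles) and without mutant library 2 (green diamonds). The values over all libraries lie between -1.12 and -0.76, and those without mutant library 2 lie between -2.54 and -1.49 with shorter bars.

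Genotype and sex differ among the controls. Control library 1, the 1 control with 2 floxed alleles, was the highest control for 4 of the 10 genes and the lowest for 3, and control library 2, the 1 control with high Xist, was the highest for 3 and the lowest for 1. Among the 4 libraries with high Xist the 10 genes had log2 fold changes of -1.28 (Gpr37) to -0.72 (Apod), all negative where 47.4% of all genes were, and 0 of them passed by edgeR or had an unadjusted p under 0.05 (1.12% of all genes had one and were lower). With 1 control library in that fit, its spread is taken from the mutants. Sex and Nf1 genotype cannot be told apart beyond this one control.

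As a list, the genes of the myelin sheath were low in mutant libraries 1 and 3 and near control level in mutant library 2, as the 10 genes were. On a log2 scale the 9 CNS myelin protein genes averaged -2.08, 0.23 and -2.63 from their control level in mutant libraries 1, 2 and 3, and the 10 genes averaged -1.84, 0.06 and -2.26. Of these 9 genes 0 passed over all libraries by edgeR, all 9 fold changes were negative with a median of -0.87, and all 9 fell without mutant library 2 (median -2.30). Cldn11, whose product seals the layers of myelin, was the member of that list with the smallest p: control nerves held 373 ± 103 CPM, mutant nerves 125 ± 106 CPM (SD, n = 3 per group; log2 fold change -1.57, edgeR adjusted p 0.155). In mutant library 2 it had 247 CPM, below the lowest control at 263 CPM, whereas none of the 10 genes was below every control there. Of 31 other genes of mature oligodendrocytes 0 passed, all 31 were negative with a median of -0.84, and all 31 fell without mutant library 2 (median -2.10). Dock5 had the smallest p of the 31, with a log2 fold change of -1.31 (edgeR adjusted p 0.176). It had 216 CPM in mutant library 2, below its controls at 247 to 335 CPM, while the groups overlapped for all others of the 31. Aspa, the enzyme that cleaves N-acetylaspartate, had a log2 fold change of -1.24 (edgeR adjusted p 0.264) in the fit of all libraries.

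To see whether any of the 10 genes moved apart from the sheath genes, each was set against the mean log2 CPM of the 9 myelin protein genes of the same library, a ratio that does not depend on how libraries are scaled. Group differences in this log2 ratio, mutant minus control, ran from -0.14 (Trf) to 0.39 (Cd9). Leaving out mutant library 2 took the difference for Cd9 to 0.92, and leaving out mutant library 3 took it to 0.0036. Without mutant library 2 it was 0.59 for Tspan2 in place of 0.27, 0.57 for Enpp2 in place of 0.31 and 0.39 for Plekhb1 in place of 0.25, and without mutant library 3 it was 0.07, -0.0027 and 0.11 for these 3 genes. None of the 10 had groups that did not overlap, where 13.2% of all genes had all mutants above all controls and 0.441% had all mutants below. The two-sided exact permutation p was 0.3 to 0.9 and 0.857 to 0.9 after Benjamini-Hochberg adjustment over the 10, and the smallest p that 3 against 3 libraries can give is 0.1. Trf had a log2 ratio of 0.83 ± 0.33 in controls and 0.68 ± 0.12 in mutants (SD, n = 3 each), and Ndrg1 had -0.48 ± 0.12 and -0.58 ± 0.12. Enpp2 had 0.76 ± 0.14 in controls and 1.06 ± 0.58 in mutants, with 0.96, 0.54 and 1.68 in mutant libraries 1, 2 and 3. Cd9 spread most, with -3.03, -3.60 and -3.96 in control libraries 1, 2 and 3 and -2.84, -4.21 and -2.37 in the mutants of the same numbers. In mutant library 3, Cd9, Enpp2, Tspan2 and Plekhb1 stood 1.16, 0.93, 0.68 and 0.54 above their control mean on this scale, and Trf stood 0.26 below it.

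**Figure D3:**
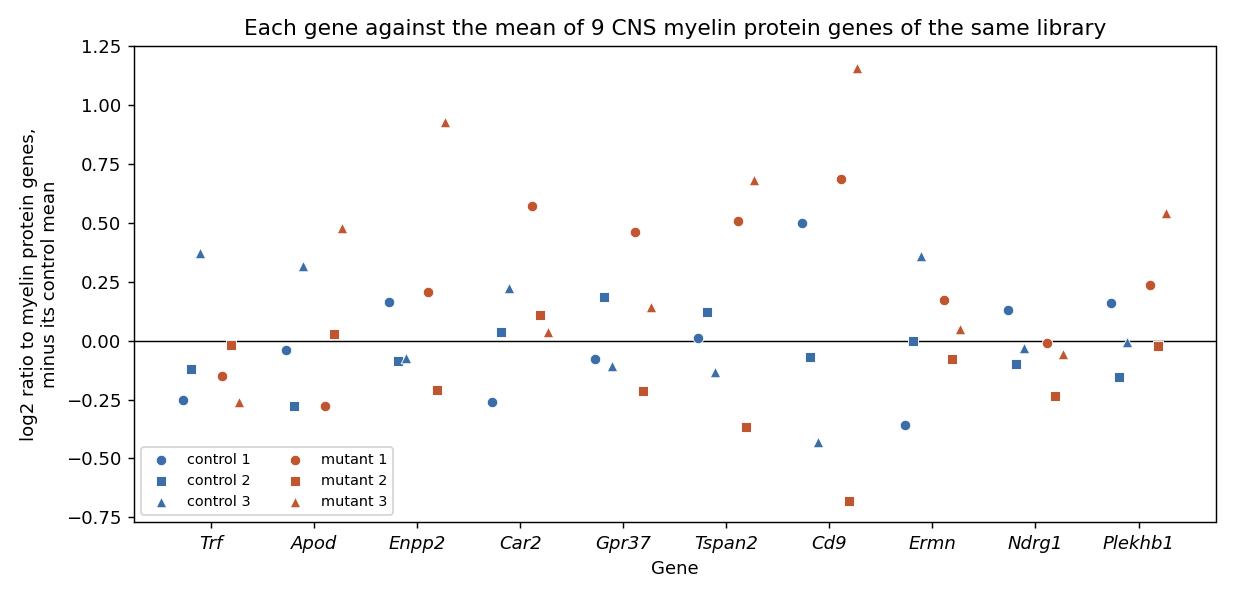
log2 ratio of each gene to the mean of the 9 CNS myelin protein genes of the same library, minus the control mean of that ratio, with controls in blue and mutants in orange. Controls and mutants overlap for all 10 genes, and Cd9 has the widest spread, from -0.68 in mutant library 2 to 1.16 in mutant library 3.

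Among themselves the 10 genes had Pearson's r of log2 CPM between 0.771 (Car2 with Cd9) and 0.997 (Trf with Ermn) over the 6 libraries, with a median of 0.963 over the 45 pairs. These points share their libraries, and the low level of mutant libraries 1 and 3 enters each of them. Outside the list, the genes with the highest r with the mean standardised log2 CPM of the 10 were P2rx7, an ATP-gated channel, Slc20a2, a phosphate transporter, Pmp22, a myelin protein gene best known from Schwann cells, Vps37c, an endosomal sorting gene, and Fah, an enzyme of tyrosine breakdown. Their r lay between 0.99875 and 0.99899 over the same 6 libraries. Pmp22 had 338, 380 and 341 CPM in the controls and 88.5, 379 and 68.6 CPM in the mutants. None of these 5 passed over all libraries by edgeR (adjusted p 0.328 to 0.393), and all 5 fell without mutant library 2.

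Relatives and partners of the 10 genes did not follow 1 direction. Ndrg4, a relative of Ndrg1 that is abundant in neurons, rose from 272 ± 25.9 CPM in controls to 2015 ± 741 CPM in mutants (SD, n = 3 each; log2 fold change 2.89, adjusted p 0.00545 by edgeR, SE 0.36). It was the 1 of 10 relatives or partners of Ndrg1, Gpr37, Plekhb1 and Ermn that passed (2.95% of all genes passed upward), and their median was -0.17. Without mutant library 2, 2 of them rose and 3 fell, with a median of -0.34. Of 13 other carbonic anhydrases tested, Car12, a membrane-bound enzyme, rose by 3.46 on the log2 scale (edgeR adjusted p 0.0197), with 1.49 to 4.07 CPM in controls and 41.3, 9.98 and 30.1 CPM in mutant libraries 1, 2 and 3. Car13, a cytosolic enzyme, had a log2 fold change of -1.77 (edgeR adjusted p 0.0556), and the median of the 13 was 0.19. Of 24 other tetraspanins tested, Tspan7 rose from 122 ± 19.7 to 322 ± 122 CPM (SD, n = 3 each; log2 fold change 1.41, edgeR adjusted p 0.0497), 0 fell, and the median was -0.54. Cd82 had a log2 fold change of -1.38 (edgeR adjusted p 0.153) and was lower in every mutant than in any control. Of 5 tetraspanin partners 0 passed with or without mutant library 2 (medians -0.38 and -0.65), with the integrin gene Itgb1 at -0.62. Without mutant library 2, 4 of the other carbonic anhydrases rose and 2 fell, and 1 of the other tetraspanins rose and 11 fell, where 13.2% of all genes rose and 13.8% fell.

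Genes that work with the secreted proteins had 0 calls over all libraries by edgeR. Of 16 iron handling genes tested, which serve the same traffic as transferrin, 11 were negative, the median was -0.49 and 7 fell without mutant library 2. Steap3, an endosomal ferrireductase that acts on iron delivered by transferrin, had 29.4, 22.1 and 21.8 CPM in the controls and 6.69, 16.6 and 5.44 CPM in the mutants (log2 fold change -1.35, adjusted p 0.131 by edgeR, SE 0.43). Slc40a1, the iron exporter ferroportin, had 10.2 to 13.4 CPM in controls and 6.58 to 6.75 CPM in mutants, with mutant library 2 at the level of the other mutants (log2 fold change -0.84, edgeR adjusted p 0.155). Of 11 genes that make, bind or break down lysophosphatidic acid, the product of autotaxin, 7 were negative with a median of -0.61, and 3 fell and 1 rose without mutant library 2. The receptor gene Lpar6 had a log2 fold change of -0.75 and the kinase gene Agk 0.89, and both had separate groups (edgeR adjusted p 0.255 and 0.122). Of 7 lipocalin and apolipoprotein genes tested beside Apod, 6 were negative with a median of -0.61, and 4 fell without mutant library 2. Ptgds, the lipocalin-type prostaglandin D synthase, had 21690, 19890 and 9370 CPM in the controls and 2022, 11420 and 1793 CPM in the mutants (log2 fold change -1.74, edgeR adjusted p 0.25).

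Markers of other cells also differed between these libraries, some in the pattern of the 10 genes and some not, and their part in the values of the 10 genes was not tested. Striatal projection neurons have their cell bodies outside the optic nerve, and where their transcripts came from was not tested. Their 8 markers all rose (2.95% of all genes). These markers summed to 101 to 142 CPM in controls and to 2050, 1261 and 1372 CPM in mutant libraries 1, 2 and 3. The 10 neuron markers, of which 4 rose, and 8 without mutant library 2, summed to 606 to 1103 CPM in controls and to 6127, 1786 and 4153 CPM. By these sums mutant library 2 was the lowest mutant in both lists and above every control. By mean log2 CPM the striatal markers were 4.50, 3.86 and 3.84 above their control mean in mutant libraries 1, 2 and 3, so mutant library 2 was close to mutant library 3 there, which it was not for the 10 genes. The 8 fibroblast markers, of a cell type that also uses Apod, summed to 1175 to 1358 CPM in controls and to 212, 787 and 238 CPM in the mutants, and 0 passed over all libraries while all 8 fell without mutant library 2. The 8 endothelial markers, of a cell type that also uses Cd9, summed to 297 to 327 CPM and to 118, 223 and 123 CPM, and 1 fell, with all 8 falling without mutant library 2. The 7 pericyte and smooth muscle markers summed to 392 to 478 CPM in controls and 119 to 398 CPM in mutants, the 8 microglia markers to 490 to 649 and 263 to 687 CPM, the 9 precursor markers to 639 to 806 and 425 to 676 CPM, and the 10 astrocyte markers to 6111 to 6228 and 5929 to 7571 CPM, with 0 passing in each. Without mutant library 2 there were 6, 4, 7 and 5 of these 4 lists' genes that fell, and 1 astrocyte marker rose.

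Further lists also concern cells outside the nerve's own glia and vessels. The 7 markers of the choroid plexus, where Enpp2 and Trf are also used, summed to 106 to 152 CPM in controls and 50.6 to 92.4 CPM in mutants, and its defining gene Ttr had 4.36 to 6.35 CPM in controls and 2.02 to 4.26 CPM in mutants. Of the 5 tested, 1 rose, Clic6, and 0 fell. Kl and Kcnj13, which were named after their values were seen, made up most of that sum and were lower in every mutant than in any control (log2 fold changes -1.77 and -1.15, adjusted p 0.0657 and 0.149 by edgeR), and both fell without mutant library 2. The 8 Schwann cell markers summed to 443 to 503.3 CPM in controls and to 146, 471 and 127 CPM in mutant libraries 1, 2 and 3. Pmp22 made up most of that sum. Of 6 tested 0 passed over all libraries, and 1 rose and 3 fell without mutant library 2. Retina markers summed to at most 10.5 CPM and skeletal muscle markers to at most 5.80 CPM in any library, with 0 passing in both. Of 7 blood markers the 6 globin genes are listed at 0 in every library, and Alas2 had a log2 fold change of 0.10.

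**Figure D4:**
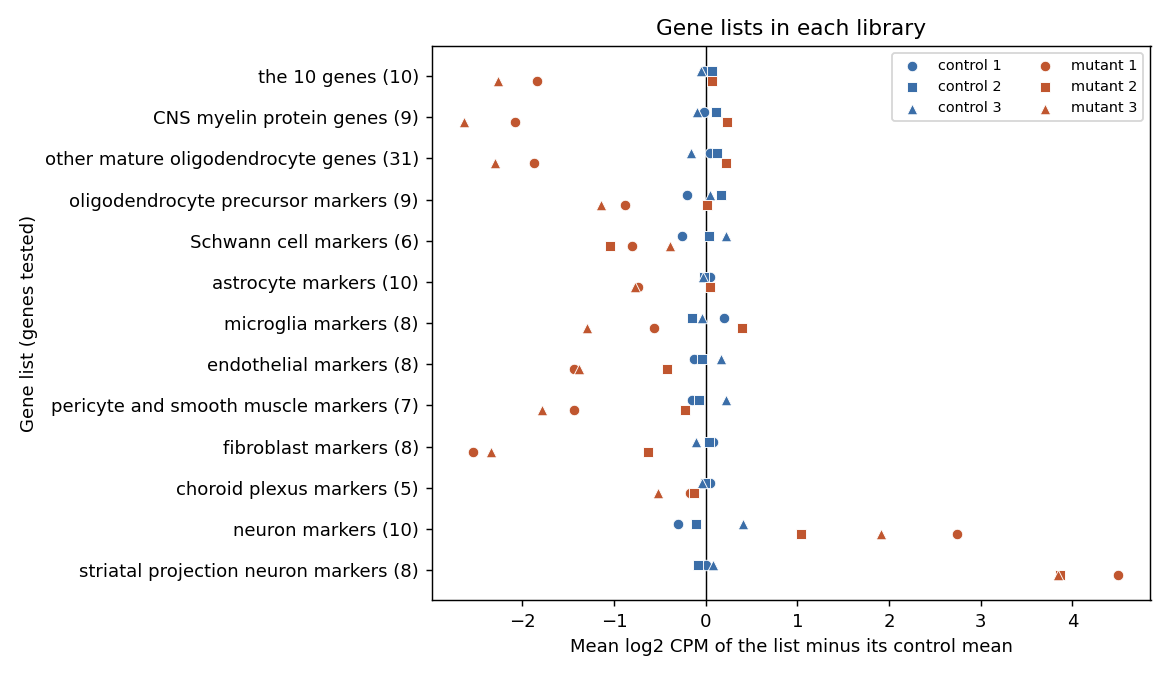
Mean log2 CPM of each gene list minus its control mean, per library, with controls in blue and mutants in orange and the number of genes tested in parentheses. The 10 genes and both other lists of mature oligodendrocyte genes are low in mutant libraries 1 and 3 and near 0 in mutant library 2. Precursor (-0.88, 0.02 and -1.14) and astrocyte markers (-0.74, 0.05 and -0.77 in mutant libraries 1, 2 and 3) share this order with smaller falls. Of the 10 astrocyte markers 6 had negative log2 fold changes, and Slc1a2 was higher in every mutant than in any control. Endothelial (-1.44, -0.42 and -1.385) and microglia markers (-0.565, 0.40 and -1.30) were also lowest in mutant libraries 1 and 3. So were pericyte and smooth muscle markers (-1.43, -0.23 and -1.79). Fibroblast markers were too (-2.54, -0.63 and -2.34), below the 10 genes in each mutant library. By this mean Schwann cell markers do not share the order of the 10 genes (-0.81, -1.04 and -0.39), though their summed CPM does (146, 471 and 127). Striatal projection neuron markers are above the controls in all 3 mutant libraries.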

How the data were processed

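RNA of 6 optic nerve libraries was amplified (Ovation RNA-Seq System v2) before Nextera XT library construction, per the labels' protocols. Each deposited file gives, per the file headers, unnormalised counts of read pairs for 24062 genes. The authors ran featureCounts 1.4.6-p4, ignoring strand and summing exons of the UCSC mm10 annotation, and all libraries carry the same run and lane. TopHat and DESeq2 appear in the submitters' processing notes.

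CPM use TMM-scaled library sizes. Groups were compared with edgeR 4.0.16 (R 4.3.3), quasi-likelihood, after filterByExpr with a minimum count of 10, without covariates. The threshold was a Benjamini-Hochberg adjusted p under 0.05 over 16315 genes. SE is the absolute log2 fold change over the square root of F. Ratios use log2 CPM with a prior count of 0.5 and an exact permutation test. DESeq2 1.42.0 and limma 3.58.1 served as alternatives. No pair of libraries looked like a repeat deposit (chi-square per degree of freedom at least 48.2). Reads amplified by PCR are not independent molecules.

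The members and lists were chosen with earlier results of these data known. Named genes were the 10 members, Nf1, Xist, overlapping genes, the 5 genes most alike in pattern, and up to 3 genes per list. The latter came from the 3 genes first by call and then by p, and not every gene among these was named. Ttr and Alas2 were named as defining or sole markers after their values were seen. Kl and Kcnj13, which are among the first 3 genes of their list, were also named after their values were seen.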

Additional observations from a re-analysis of the deposited data

How the results depend on the processing

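All 10 log2 fold changes were negative under 17 of 19 alternatives, and the cause of the exceptions was not tested. Scaled to the 9 CNS myelin protein genes, which puts the median of all genes at 1.89, Apod was at 0.087, Car2 0.24, Cd9 0.52, Enpp2 0.38, Ermn 0.021, Gpr37 0.15, Plekhb1 0.26 and Tspan2 0.34. With mutant library 2 alone, chosen after seeing the data, Apod was at 0.25, Car2 0.33, Enpp2 0.018, Ermn 0.13, Gpr37 0.0054, Plekhb1 0.21 and Trf 0.20. Of the 10 genes, 0 were called when any library but mutant library 2 was left out, and 10 without that library or by limma-voom with quality weights. Leaving out mutant library 1 or 3 took their median from -0.99 to -0.66 or -0.58.

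Against the other mature oligodendrocyte genes, the log2 ratio difference was -0.10 for Apod, -0.13 for Ermn and -0.046 for Gpr37, and against the median myelin gene it was -0.016 for Ermn. With 1 library left out, the ratio difference ranged from -0.13 to 0.25 for Apod, -0.0027 to 0.57 for Enpp2, -0.13 to 0.23 for Ermn, -0.036 to 0.30 for Gpr37, -0.27 to 0.043 for Trf, 0.0036 to 0.92 for Cd9, 0.07 to 0.59 for Tspan2, 0.11 to 0.39 for Plekhb1, 0.07 to 0.35 for Car2 and -0.15 to -0.03 for Ndrg1.

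Over all genes, 537 changed by edgeR (482 up, 55 down). The number was 3632 scaled to myelin genes (3628 up, 4 down), 1645 by DESeq2 (1163 up, 482 down), 4009 with quality weights (1990 up, 2019 down), 870 without a count filter, 222 with mutant library 2 alone, and 51 to 4551 with 1 library left out, the highest without mutant library 2. It was 0 by edgeR with an Xist covariate and 0 among the high Xist libraries, where 1330 and 894 genes had an unadjusted p under 0.05. No paired analysis was possible because the replicate numbers only follow the order of deposit. The 10 genes had at least 351 counts in each library. Their SE was 0.36 to 0.70 over all libraries and 0.21 to 0.32 without mutant library 2.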
